A study of Mus musculus with 6 samples.

Results

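The genes described here are 10 transcription factor genes of the caudal embryo, the primitive streak and the early mesoderm. They are the caudal-type homeobox genes Cdx1, Cdx2 and Cdx4, the even-skipped homolog Evx1, the T-box genes T (brachyury), Eomes and Tbx6, the homeobox gene Mixl1, and the basic helix-loop-helix genes Mesp1 and Mesp2. They were chosen by name, and all 10 were found, once each, among the 23235 entries in the deposited list of genes. RNA was measured in 6 samples of the mouse ESC line E14Tg2a at passages 37 to 40. Pluripotent ESCs kept in serum medium with LIF gave 3 samples, and cells grown as monolayers without LIF in 1 μM RA for 48 h, named NCs in the study, gave the other 3. Each sample came from a pair of 60 mm plates of this single cell line, and the study describes the 3 samples of a condition as independent biological replicates that were processed separately. The table holds 1 FPKM value per gene and condition (fragments scaled to transcript length and sequencing depth), estimated by the authors over the 3 samples. It shows no spread between samples, so every value below is the authors' pooled value, given without SD. The difference between conditions was not tested here, and the authors' own test results were left out.

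In the gastrulating embryo, Wnt and Nodal signals switch on T, Eomes and Mixl1 in the primitive streak, the site where epiblast cells become mesoderm and endoderm. Mesp1 and Mesp2 mark the mesoderm that leaves the streak, and Tbx6 directs the paraxial mesoderm toward somites and away from a neural fate. Cdx genes, which answer to RA, Wnt and FGF signals, set posterior identity through the Hox genes in the tail end of the embryo, and Evx1 marks its posterior streak.

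The 10 genes had 3.58 FPKM or less in both conditions. Only Mesp2 in ESCs and Cdx1 in NCs stood above the median over all entries, given below. FPKM reached 1 in at least 1 condition for 3 genes, Cdx1, Eomes and Mesp2, and in both conditions for Mesp2 alone. The other 7 stayed under 1 FPKM throughout. The median of the 10 genes was 0.613 FPKM in ESCs and 0.326 in NCs, where the median over all entries was 1.53 and 1.77 FPKM. In bulk RNA, a low value in every cell and a higher value in a few cells cannot be told apart. FPKM was lower in NCs for 7 genes and higher for 3, namely Cdx1, Cdx2 and Mixl1. For 5 of the 10 genes (Cdx2, Mixl1, Evx1, Tbx6 and Mesp1) the difference lay within the counting error described below. The share of all entries that were lower was not counted. Their median log2 ratio of NC over ESC was -0.01 among those with a mean of at least 0.1 FPKM. The values of the 10 genes summed to 6.21 FPKM in ESCs against 7.14 in NCs. Without Cdx1, the sum was 5.61 FPKM in ESCs against 3.56 in NCs.

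Sequencing depth is not in the table, but its lowest values rise in steps, taken as the worth of 1 fragment. In a transcript with 1 kb of alignable positions, a step was 0.012 or 0.0138 FPKM wide for ESCs and 0.00715 or 0.0136 FPKM wide for NCs, where the wider step lies close to a doubling of the narrower one and may not be the worth of a single fragment. These steps and the length of each gene's longest annotated transcript gave the approximate number of fragments behind each value. The 95% intervals below are exact ones, binomial for a ratio and Poisson for a level, computed from the fewest fragments that the steps allow. They cover counting error only, and leave out the spread between cultures.

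**Figure D1:**
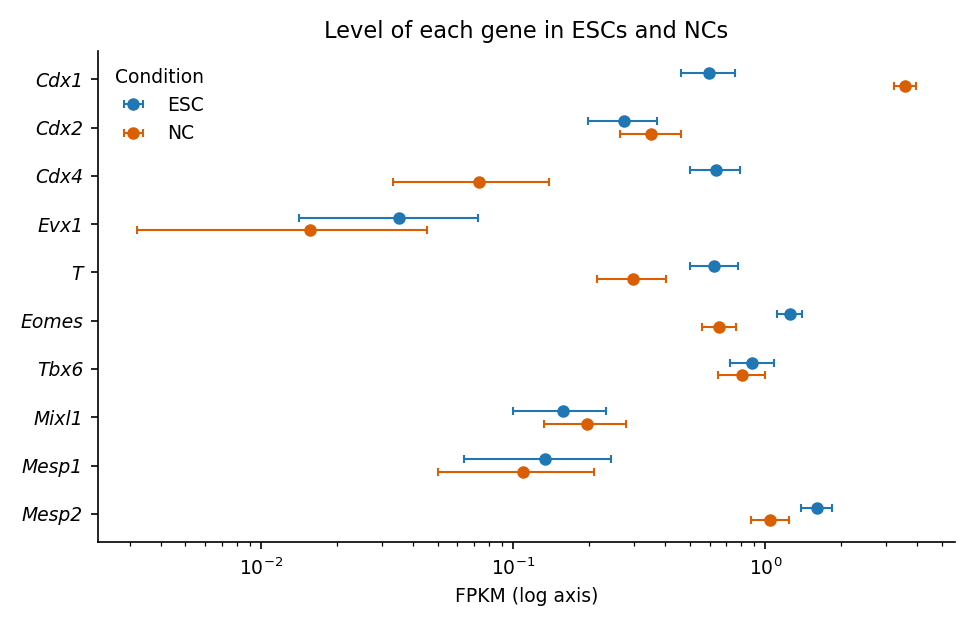
FPKM of the 10 genes in ESCs (blue) and NCs (orange) on a log axis. Points are the authors' pooled values and bars the 95% Poisson intervals for counting error. Cdx1 stands highest in NCs at 3.58 FPKM, the bars of the conditions lie apart for Cdx1, Cdx4, T, Eomes and Mesp2, and Evx1 is lowest in both.

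A change was called when the ratio of the FPKM values was at least 2 in either direction and their mean was at least 0.5 FPKM. The mean passed that minimum for 4 of the 10 genes, Cdx1, Eomes, Tbx6 and Mesp2. By this rule 1 gene, Cdx1, was higher in NCs and none was lower. Among all genes, 12.6% of the 13955 entries past the minimum were called higher and 10.7% lower. With a minimum of 0.1 FPKM, 9 of the 10 genes passed and 2 were lower in NCs, Cdx4 and T. The share over all entries was then 15.2% higher and 12.0% lower. Cdx4 and T both had means between 0.1 and 0.5 FPKM, a range in which 31.2% of 2237 entries were at least 2-fold higher and 20.3% at least 2-fold lower. Of the 5 genes in this range, 2 were at least 2-fold lower and none was higher. The interval of the ratio lay above 1 for 1 gene and below 1 for 4 (Cdx4, T, Eomes and Mesp2), and it held 1 for the other 5. Such intervals were not computed for all entries, so these counts cannot be set against a share over all genes.

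The median log2 ratio of NC over ESC was -0.28 over the 9 genes with a mean of at least 0.1 FPKM and -0.01 over the 16192 entries past the same minimum.

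**Figure D2:**
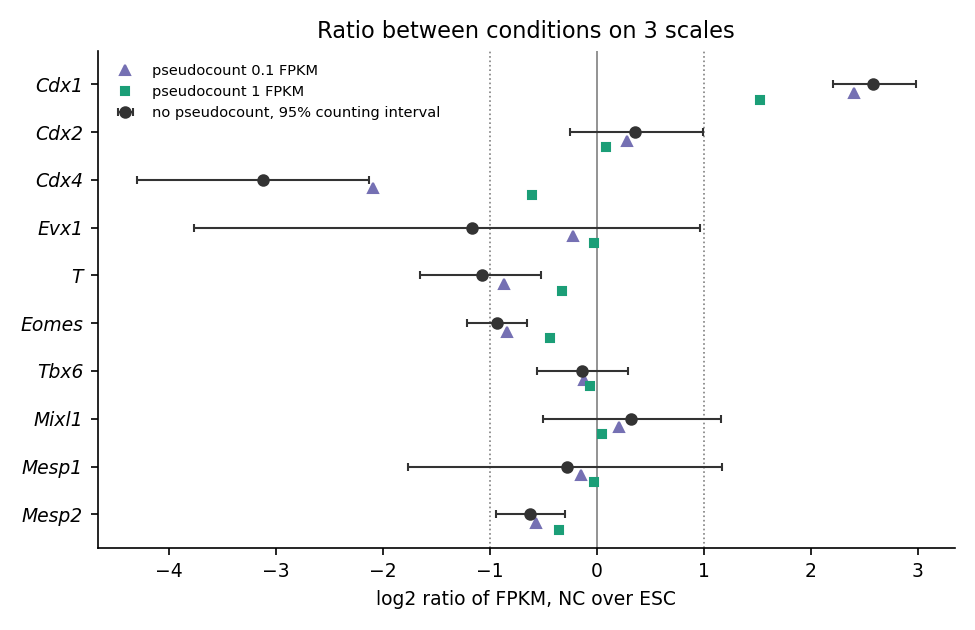
Log2 ratio of FPKM, NC over ESC, for each gene. Black points are the ratios as deposited with 95% intervals for counting error, purple triangles and green squares the ratios after 0.1 or 1 FPKM was added to both values, and dotted lines mark 2-fold. Cdx1 lies beyond 2-fold on all 3 scales, while Cdx4 moves from -3.12 to -0.61 with 1 FPKM added.

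The Cdx genes went different ways. All gene positions are from the GENCODE M21 annotation of GRCm38. Cdx1 (chromosome 18, 61018862 to 61036199, minus strand, 3 exons), a caudal-type homeobox gene known as a direct target of RA receptors, had 0.598 FPKM in ESCs against 3.58 in NCs. The NC value was 5.99-fold higher, with an interval of 4.62 to 7.88, from about 67 to 77 fragments in ESCs and 410 to 778 in NCs. Cdx1 was sixth of the 10 genes in ESCs and first in NCs, where 56.6% of all entries had a lower FPKM. Its log2 ratio was 2.58, or 1.52 with 1 FPKM added to both values.

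Cdx4 (chromosome X, 103321398 to 103330592, plus strand, 3 exons), which acts with Wnt signals in the posterior embryo, had 0.635 FPKM in ESCs against 0.0730 in NCs. It was 8.70-fold lower in NCs, with an interval of 4.37 to 19.7, and the NC value rests on only 9 to 18 fragments. In ESCs the Cdx4 level could not be told from that of Cdx1 within counting error, and in NCs it ranked ninth. With 0.1 FPKM added to both values its log2 ratio was -2.09 in place of -3.12.

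Cdx2 (chromosome 5, 147300805 to 147307270, minus strand, 3 exons) also specifies the trophectoderm, the outer layer of the blastocyst. It had 0.274 FPKM in ESCs against 0.353 in NCs, a ratio of 1.29 with an interval of 0.842 to 1.98. The data thus give no direction for Cdx2 beyond counting error. The spread among these 3 paralogs ran from 0.274 to 0.635 FPKM in ESCs and from 0.0730 to 3.58 FPKM in NCs.

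Among their closest relatives in the homeobox family, every gene had a lower FPKM than Cdx1 in both conditions. The ParaHox genes Gsx1, Gsx2 and Pdx1, which share an ancestral cluster with the Cdx genes, all had means under 0.5 FPKM. Pdx1 had 0.0220 FPKM in ESCs against 0.394 in NCs, Gsx2 had 0.238 and 0.0560 FPKM, and Gsx1 had 0.0415 and 0.00858 FPKM. Evx2 was listed at 0 for ESCs and stood at 0.00581 FPKM in NCs. Of the 8 genes in the list of Cdx, Evx and ParaHox genes, Cdx1 alone had a mean of at least 0.5 FPKM.

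Evx1 (chromosome 6, 52313498 to 52318378, plus strand, 3 exons) lies beside the Hoxa cluster. It was the lowest of the 10 genes, with 0.0350 FPKM in ESCs against 0.0155 in NCs. These values correspond to about 7 to 8 and 3 to 6 fragments. The ratio of 0.444 had an interval of 0.0740 to 1.94, so no difference was detectable at this depth. Evx1 overlaps the antisense gene Evx1os, with which 0.919% of the 50-base words of its transcript are shared, and reads of the pair cannot be told apart where they overlap unless the strand was used in counting.

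T and Eomes, the T-box genes of the streak, were both lower in NCs. T (chromosome 17, 8434423 to 8442496, plus strand, 8 exons in its longest transcript) drives mesoderm formation and axis elongation. It had 0.628 FPKM in ESCs against 0.299 in NCs, from about 84 to 97 and 41 to 77 fragments. T was 2.1-fold lower in NCs, with an interval of 1.43 to 3.13, and its log2 ratio of -1.07 became -0.87 with 0.1 FPKM added. The mean of 0.463 FPKM kept T just under the minimum for a call.

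Eomes (chromosome 9, 118478212 to 118486132, plus strand, 6 exons), a T-box factor needed for the exit of mesoderm from the streak, for definitive endoderm and for trophoblast, had 1.25 FPKM in ESCs against 0.657 in NCs. It was 1.90-fold lower, with an interval of 1.57 to 2.32, and so stood just inside the 2-fold limit. About 305 to 351 fragments in ESCs and 163 to 309 in NCs lie behind these values. Of the 50-base words in its longest transcript, 2.28% also occur in transcripts of other genes, and it overlaps an antisense gene, Gm33460.

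Tbx6 (chromosome 7, 126781483 to 126785560, plus strand, 8 exons) had 0.888 FPKM in ESCs against 0.808 in NCs. The ratio was 0.909, with an interval of 0.676 to 1.22. Of the T-box genes among the 10, T and Eomes thus differed between conditions beyond counting error, and for Tbx6 no such difference was detectable. The order of the levels was Eomes, Tbx6, T in ESCs and Tbx6, Eomes, T in NCs. In NCs the intervals of Tbx6 (0.650 to 0.992 FPKM) and Eomes (0.560 to 0.766 FPKM) overlapped.

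Of the 14 other genes in the T-box list, 5 had a mean of at least 0.5 FPKM, of which 1 was called higher in NCs and 1 lower. Tbx2, a T-box repressor, was higher in NCs, from 0.133 to 2.56 FPKM, and Tbx20, a heart factor, had 1.32 FPKM in ESCs against 0.260 in NCs. Tbx3, which also acts in ESC self-renewal, had 7.37 and 4.81 FPKM. Mga, which pairs a T-box with a Max-binding domain, was the T-box gene with the highest FPKM in both conditions, at 20.2 and 11.2. Eomes, Tbx6 and T lay below both Mga and Tbx3 in each condition.

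Mixl1 (chromosome 1, 180693043 to 180697034, minus strand, 2 exons), a paired-type homeobox gene of the streak that responds to Nodal, had 0.157 FPKM in ESCs against 0.196 in NCs. The ratio of 1.25 had an interval of 0.708 to 2.24, from about 24 to 27 and 30 to 58 fragments. No difference was detectable for Mixl1 at this depth.

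Mesp1 (chromosome 7, 79792241 to 79793788, minus strand) and Mesp2 (chromosome 7, 79810727 to 79813439, plus strand) are neighbours, 16.9 kb apart and turned away from each other, with 2 exons each. Mesp1 marks the earliest cardiac mesoderm, and Mesp2 sets the boundary and polarity of each somite. Mesp2 had 1.61 FPKM in ESCs against 1.05 in NCs, which is 1.53-fold lower with an interval of 1.23 to 1.92. Mesp1 had 0.133 FPKM in ESCs against 0.110 in NCs, a ratio of 0.823 with an interval of 0.296 to 2.25. Mesp2 was the highest of the 10 genes in ESCs and the second in NCs, behind Cdx1. Mesp2 exceeded Mesp1 12.1-fold in ESCs and 9.55-fold in NCs on the FPKM scale, which is per length. Only 1 of the 50-base words of the Mesp2 transcript is found in another gene, Gm10032, and none is shared with Mesp1.

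Neighbours in the order of levels were compared by whether their counting intervals overlapped. In ESCs there were 3 groups. Mesp2 (interval 1.39 to 1.84 FPKM) touched Eomes (1.11 to 1.40 FPKM). Tbx6, Cdx4, T and Cdx1 followed between 0.888 and 0.598 FPKM, with intervals that overlapped. Cdx2, Mixl1 and Mesp1 came next, at 0.274, 0.157 and 0.133 FPKM, and Evx1 was last, with an interval that just met that of Mesp1. In NCs, Cdx1 (3.25 to 3.95 FPKM) lay apart from Mesp2 (0.878 to 1.24 FPKM), the second in order. The intervals of Mesp2, Tbx6 and Eomes overlapped from each to the next, and a gap set Eomes (0.560 FPKM at its lower bound) apart from Cdx2 (0.461 FPKM at its upper bound). From Cdx2 down through T, Mixl1, Mesp1, Cdx4 and Evx1, each interval overlapped the next.

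**Figure D3:**
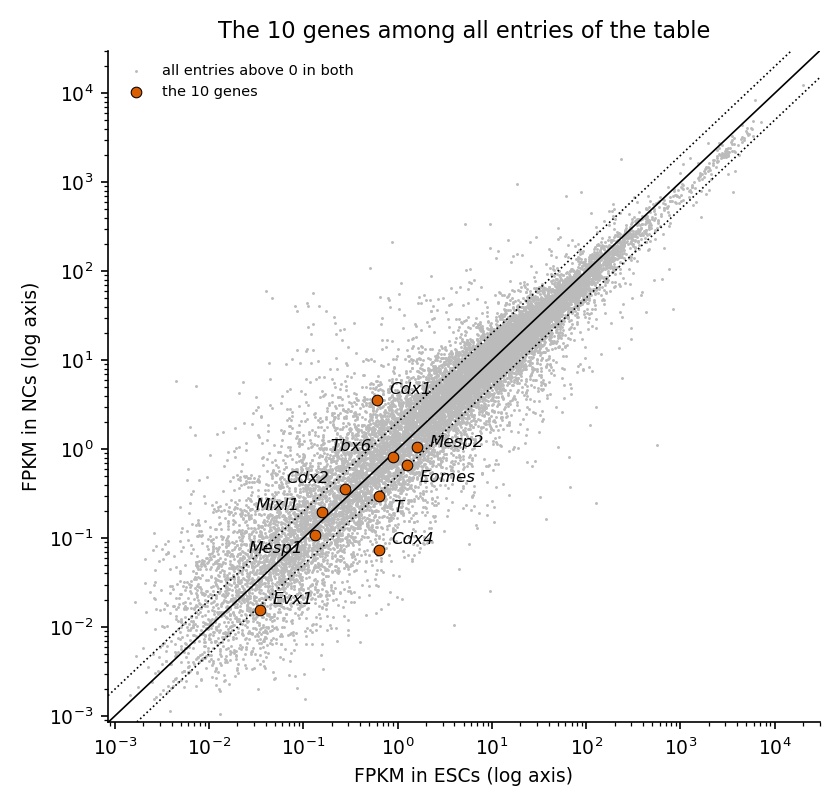
FPKM in ESCs (x axis) against FPKM in NCs (y axis), both on log axes, for all entries above 0 in both (grey) and the 10 genes (orange). The solid line marks equal values and the dotted lines 2-fold. The 10 genes lie in the lower part of the cloud, where it is wider, with Cdx1 above the upper dotted line and Cdx4 well below the lower one.

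The sequences upstream of T, Mesp2, Cdx4 and Eomes are shown here, since these 4 genes were lower in NCs beyond counting error. The promoter table of RefSeq (GRCm38.p6) held 8 of the 10 genes, without Cdx1 and Mixl1. The 250 bases before the RefSeq start site were searched on both strands for short motifs, and each share below is over the 32817 promoters of the table. CTTTGA, the core that TCF/LEF factors of the Wnt pathway bind, was found in 2 of the 8 genes, T and Mesp1, and in 13.8% of all promoters. TTTATG, the core bound by CDX factors, was found in T alone and in 10.8% of all promoters. The T-box core TCACACC was found in none of the 8 and in 3.33% of all promoters. The half-site of RA receptors, AGGTCA, was found in none of the 8 and in 14% of all promoters. An E-box, CANNTG, which MESP factors among others bind, was found in 6 of the 8 and in 66.2% of all promoters. The TATA box was searched only as the exact letters TATAAA, found in Tbx6 alone and in 12.4% of all promoters. Variants of these letters were not counted, such as the tatataag near the end of the Eomes window. Matches of different motifs were counted even where they overlapped. Capitals in the sequences mark the TCF/LEF and CDX matches, on either strand. In T the matches lie 234 bases (TCF/LEF) and 178 bases (CDX) before the start site. For Mesp1 the RefSeq and GENCODE starts differ, so that 198 of the 250 bases searched, both TCF/LEF matches among them, lie inside the gene as GENCODE places it, and its window is not shown. For Cdx2, 21 bases of the window lie inside the GENCODE gene. A match in these letters is a description of the sequence and not a bound site.
T (GRCm38.p6, chr17:8434173-8434422, plus strand): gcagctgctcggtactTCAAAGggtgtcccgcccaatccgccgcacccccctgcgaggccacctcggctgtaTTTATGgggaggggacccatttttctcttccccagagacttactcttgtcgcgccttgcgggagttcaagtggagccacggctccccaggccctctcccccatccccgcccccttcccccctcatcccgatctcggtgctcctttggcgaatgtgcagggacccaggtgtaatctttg
Mesp2 (GRCm38.p6, chr7:79810477-79810726, plus strand): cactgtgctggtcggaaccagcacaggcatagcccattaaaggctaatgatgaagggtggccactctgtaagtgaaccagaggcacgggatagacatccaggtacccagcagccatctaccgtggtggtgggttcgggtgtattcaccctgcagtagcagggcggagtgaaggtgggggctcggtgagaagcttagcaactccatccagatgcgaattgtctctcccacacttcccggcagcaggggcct
Cdx4 (GRCm38.p6, chrX:103321148-103321397, plus strand): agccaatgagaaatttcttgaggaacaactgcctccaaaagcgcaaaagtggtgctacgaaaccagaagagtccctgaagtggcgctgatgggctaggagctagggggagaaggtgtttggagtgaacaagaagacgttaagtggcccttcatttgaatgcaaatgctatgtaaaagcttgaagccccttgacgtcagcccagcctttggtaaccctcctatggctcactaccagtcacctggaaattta
Eomes (GRCm38.p6, chr9:118477939-118478188, plus strand): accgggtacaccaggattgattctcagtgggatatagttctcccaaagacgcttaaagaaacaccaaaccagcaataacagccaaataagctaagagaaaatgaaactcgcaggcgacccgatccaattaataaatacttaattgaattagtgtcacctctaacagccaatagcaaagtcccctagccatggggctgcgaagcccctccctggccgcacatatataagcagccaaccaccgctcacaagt

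Signals and other genes of the streak were read from lists that name them. Of the 21 genes of streak signals and organizer genes, 16 had a mean of at least 0.5 FPKM, of which 8 were called lower in NCs and 5 higher (median log2 ratio -0.85, against -0.03 over all 13955 entries). Tdgf1 and Fgf4 are counted here and again among the ESC markers below. Tdgf1, the Nodal co-receptor, was 513-fold lower, from 564 to 1.10 FPKM, and Nodal itself 4.82-fold lower, from 15.6 to 3.24 FPKM. Wnt3, the Wnt ligand that starts the streak, had 0.541 and 0.287 FPKM, Wnt3a had 0.0981 and 0.337 FPKM, and Fgf8 had 1.51 and 0.934 FPKM. Lhx1 and Foxa2, which act in the anterior streak and its derivatives, were higher in NCs, from 0.108 to 3.39 FPKM and from 0.617 to 5.24 FPKM. Dkk1, Nog and Fst were called higher as well, from 0.372 to 2.28, from 1.04 to 3.3 and from 1.46 to 3.86 FPKM. Not all genes of the list rose with them. Otx2 was 228-fold lower in NCs, from 37.8 to 0.166 FPKM. Gsc had 0.477 FPKM in ESCs against 0.512 in NCs, and Chrd had 1.39 against 1.5 FPKM. T, Eomes and Mixl1 lay under 1.3 FPKM in ESCs, where Nodal and Tdgf1 had far higher levels per length. All 13 genes of the Wnt target list passed the minimum, with 6 called higher, 1 lower, and a median log2 ratio of 0.60. Sp8 was higher in NCs, from 0.0444 to 6.06 FPKM, as was Axin2, from 3.07 to 8.81 FPKM, while Lef1 was 2.09-fold lower.

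Many genes of the tailbud were higher in NCs, as Cdx1 was. Of 16 genes of the tailbud and neuromesodermal progenitor list, 13 passed the minimum, with 10 called higher and 2 lower (median log2 ratio 2.91). Cyp26a1, which breaks down RA, was higher in NCs, from 0.874 to 215 FPKM, as was Hoxb8, one of the posterior Hox genes that Cdx factors control, from 0.109 to 44.2 FPKM. Nkx1-2, a marker of the caudal progenitors that also carry T, had 0.0453 FPKM in ESCs against 0.0661 in NCs. The 2 genes called lower were Fgf17, 29.3-fold, from 6.05 to 0.206 FPKM, and Sox2, 3.48-fold, from 258 to 74.1 FPKM. Sox2 is counted again among the ESC markers and the neural markers below.

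Genes of the mesoderm that Tbx6, Mesp1 and Mesp2 help to form went both ways. Of 21 genes of presomitic mesoderm and somites, 14 passed, with 5 called higher and 3 lower (median log2 ratio 0.18). Meox1 was higher in NCs, from 0.253 to 5.43 FPKM, as was Foxc2, from 0.189 to 3.16 FPKM, and Tcf15 was 6.78-fold lower, from 36.4 to 5.37 FPKM. Msgn1, which acts beside Tbx6 in the presomitic mesoderm, had 0.0706 FPKM in ESCs against 0.0567 in NCs. Of 19 genes found of lateral, cardiac and blood mesoderm, 13 passed, with 8 called higher and 1 lower (median 1.22). Hand2, a heart and limb factor, was among the higher ones, from 0.0447 to 3.11 FPKM. Of the 10 genes of epithelial to mesenchymal transition, 7 were called higher and 3 lower (median 1.96). Cdh2 was higher in NCs, from 2.28 to 35.5 FPKM, and Cdh1 was 3.26-fold lower, from 124 to 38.0 FPKM. Fn1 fell the most of this list, 3.64-fold, from 155 to 42.5 FPKM.

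Other cell types were read from marker lists as well. Of 14 endoderm markers, 11 passed, with 8 called higher and 1 lower (median 1.19), and the summed level of the list was 24.6 FPKM in ESCs against 61.5 in NCs. Of the 13 trophectoderm markers other than Cdx2 and Eomes, 10 passed, with 5 called higher and 2 lower (median 0.82). The sum over the 13 was 126 FPKM in ESCs and 197 in NCs. Krt8 (30.5 and 64.2 FPKM) and Krt18 (45.7 and 103 FPKM) outweighed the other markers in that sum. Tfap2c was 7.41-fold lower in NCs, from 34.0 to 4.59 FPKM. Elf5 had 0.0297 and 0.0830 FPKM, and the trophoblast genes Tpbpa and Prl3d1 were listed at 0 in both. The part of these cell types in the values of Cdx2 and Eomes was not tested. Of 12 ESC markers, 11 were called lower and none higher (median -3.43), and Pou5f1, which encodes OCT4, had 832 FPKM in ESCs against 37.1 in NCs. Of 16 neural markers, 13 passed, with 8 called higher and 3 lower (median 2.33). Pax6 was higher in NCs, from 3.64 to 65.2 FPKM, while the neuronal genes Tubb3 and Stmn2 were lower in NCs, at 7.54 and 11.8 FPKM against 33.4 and 142 FPKM in ESCs.

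**Figure D4:**
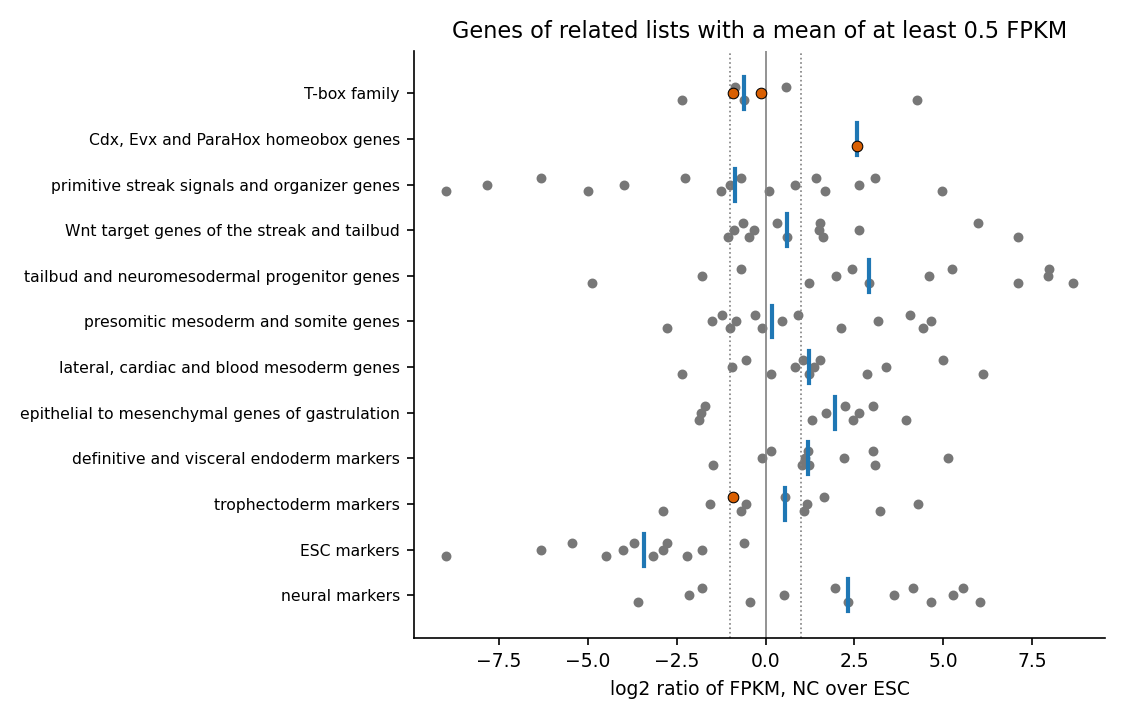
Log2 ratio of FPKM, NC over ESC, for genes with a mean of at least 0.5 FPKM in each list. Grey points are single genes, orange points those of the 10 genes described here, blue bars the list medians and dotted lines 2-fold. The median is 2.91 for tailbud genes and -3.43 for ESC markers, and Eomes and Tbx6 sit to the left of 0 in the T-box list.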

How the data were processed

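RNA was sequenced from 3 ESC and 3 NC samples. According to the submitters' processing notes and the methods, the authors aligned the reads to mm10 using TopHat2 (2.0.8), which calls Bowtie2 (2.1.0), built transcripts with Cufflinks (2.0.2) and Cuffmerge, and ran Cuffdiff on ESCs against NCs. They deposited 1 FPKM per entry and condition. The second value column is headed FPK and was read as FPKM. Other columns hold the authors' own fold change, test results and p-values and q-values for that comparison, and were left out. The version of Cuffdiff is not given in the sources used here.

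Ratios were taken without a pseudocount, and the rule for a call was a 2-fold ratio with a mean of at least 0.5 FPKM. The genes and lists were chosen with earlier results of these data known. All 10 genes are named. For the 12 lists the rule was to name direct paralogs and the 3 largest rises and falls on log2(FPKM + 1), of which some are printed. Nodal, Gsc, Chrd, Nog, Fst, Wnt3, Wnt3a, Nkx1-2, Msgn1, Elf5, Krt8, Krt18, Tpbpa, Prl3d1 and Pou5f1 fall outside that rule. They were chosen after their values were seen. The planned tests needed replicate values and were not run.

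Fragment steps were read after the values were seen, from single-transcript genes longer than 400 bases with low levels, where FPKM times length in kb lay between 0.005 and 0.018, for a fragment length of 200 bases. Positions and lengths are from GENCODE M21 (GRCm38, the assembly mm10 denotes), promoters from RefSeq. Calls and steps were tested on simulated data. Alternatives were pseudocounts of 0.1 and 1, other minimums and folds, centring and names that occur once. The work was done in Python 3.11.15 with pandas 2.3.3, scipy 1.17.1 and numpy 2.4.6, and plots were drawn with matplotlib 3.10.9.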

Additional observations from a re-analysis of the deposited data

How the results depend on the processing

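No paired analysis was possible because the table holds 1 value per condition, and leaving out a replicate was not possible for the same reason. Cdx1 was the 1 gene of the 10 called higher under each alternative, except that the count was 0 among genes with a mean from 0.1 to 0.5 FPKM, a range chosen after seeing the data, which leaves Cdx1 out. The count of the 10 genes called lower was 0 as reported, 2 (Cdx4 and T) with a minimum of 0.1 FPKM or in that range, 2 (Eomes and Mesp2) with a limit of 1.5-fold, and 3, with Evx1 added to Cdx4 and T, without a minimum. Over all entries, the counts of 1759 higher and 1490 lower became 1074 and 974 with a pseudocount of 1, 3861 and 2880 without a minimum, 2925 and 2710 at 1.5-fold, 696 and 509 at 4-fold, and 699 and 454 in the range from 0.1 to 0.5 FPKM. Of the 216 counts over the lists, 178 stayed within 1.5 times the value reported. Of 30 log2 ratios of the 10 genes under other scales, 25 stayed within the counting interval. The 5 outside it were Cdx4 with either pseudocount and Cdx1, T and Eomes with a pseudocount of 1, all nearer to 0, as adding a constant must make them. The median log2 ratio over entries at 1 FPKM or more in both conditions was -0.05, and centring on it turned the direction of none of the 10 genes. Depth limits Evx1, Mesp1, Mixl1 and the NC value of Cdx4 most.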
